A study of Mus musculus with 6 samples.

Results

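The fatty acid elongases and desaturases are 10 of the 18193 mouse genes that a probe set of the array names alone, and 28 of its 45101 probe sets cover them. A probe set is a group of short probes whose signals are combined into 1 value. The members were chosen by gene symbol: a probe set entered if the platform annotation named exactly one of Elovl1, Elovl3, Elovl5, Elovl6, Elovl7, Hsd17b12, Scd1, Scd2, Fads1 or Fads2. RNA came from alveolar type II cells, the surfactant-making epithelial cells of the lung, isolated from 2-month-old mice. The Insig1 ∆/∆ /Insig2 -/- group (3 pools of RNA, the deleted pools) carried SpC-rTTA, Otet-CRE, floxed Insig1 and no functional Insig2. The Insig1 flox/flox /Insig2 -/- group (3 pools, the control pools) also lacked Insig2 but was missing one of the 2 Cre transgenes, so its floxed Insig1 stayed intact. Doxycycline, which switches the activator on, is labelled as given from E6.5 to E12.5 (embryonic days) for either genotype. Cre depended on an Sftpc-driven activator in that window, and neither the number of mice in a pool nor the share of recombined cells is stated in the labels. No group had the complete Cre system with Insig1 intact, so an effect of the Cre system and the loss of Insig1 cannot be told apart.

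Long-chain fatty acids are built from palmitate. Elongases of the ELOVL family catalyse the condensation that adds a carbon unit to an acyl-CoA, and HSD17B12 reduces the product in the second step of the same cycle. Desaturases put double bonds in: SCD enzymes make oleate and palmitoleate from saturated chains, while FADS1 and FADS2 act on polyunsaturated chains on the way to arachidonic acid. Several of these genes are known targets of SREBP transcription factors. INSIG proteins hold the SREBP escort protein SCAP in the endoplasmic reticulum, and the comparison asks what changes in these cells when Insig1 is lost in addition to Insig2. In type II cells the chains made by these enzymes feed the phospholipids of surfactant.

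All 10 desaturase probe sets had log2 fold changes above 0 (median 1.06), as did 9 of the 16 elongase probe sets (median 0.15) and both of the reductase gene (median 0.58). One probe set each of Scd1 and Fads2 rose past the threshold, by 2.49-fold and 2.46-fold. These were 2 of the 28 member probe sets, and 0.315% of the 27022 probe sets tested rose in the same fit. No member probe set fell (0.0074% of all probe sets tested did), and 1 was lower at an unadjusted p under 0.05. Deleted pools lay above all control pools on 16 member probe sets, as 7.69% of all tested probe sets did, and below all control pools on 1, where the share of all was 7.88%. The median log2 fold change, deleted minus control, was 0.45 over the 28 member probe sets and -0.02 over all probe sets tested. Fold changes were tested with limma on log2 signals, with p-values adjusted by the Benjamini-Hochberg method over all probe sets tested and a threshold of 0.05. At an unadjusted p under 0.05, 14 member probe sets were higher, against 4.84% of all probe sets. The share of all probe sets lower at that level was not counted.

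The count of 2 depended on single pools. It was 1 without deleted replicate 1, where 28 of all 27022 probe sets rose, and 0 without deleted replicate 2 (3 of all rose) or deleted replicate 3 (17 of all). It was 2 without control replicate 1 (57 of all), 5 without control replicate 2 (198 of all) and 4 without control replicate 3 (185 of all), against 85 of all with every pool. The calls over the whole array thus moved with the same pools, and without control replicate 2 262 probe sets fell, against 2 with every pool. The genes in these counts were Scd1, Scd2 and Fads2 and no other member. Deleted pools scored between 13.2 and 24.5 on the leading principal component, which held 31% of the variance, and controls 1 and 2 scored -7.6 and 7.9. Control replicate 3 stood apart at -61.5. It was the lowest control on 16 of the 28 member probe sets, against 34.2% of all tested probe sets, and deleted replicate 2 was the highest deleted pool on 17, against 28.7%. Array medians lay between 426 and 479, with the highest signal on an array between 141333 and 197205.

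The isolates carried transcripts of other cells besides type II cells. Of 10 type II cell markers 9 had a probe set naming them alone. None rose or fell by limma on its brightest probe set, adjusted or at an unadjusted p under 0.05. Their summed signal ran from 698976 to 842908 in deleted pools and from 719846 to 856543 in control pools. Sftpa1, Sftpb, Sftpc, Sftpd, Slc34a2 and Lyz2 had mean log2 signals between 16.53 and 17.06. At 16 or more the median absolute log2 fold change was 0.07, against 0.17 over all tested probe sets. Dimmer probe sets gave 0.87 for Napsa, 0.44 and 0.64 for Etv5, -0.38 and 0.28 for Abca3, -0.09 for Sftpc and 0.07 for Sftpa1. All 11 measured macrophage markers had signals past the filter on low signals (median log2 fold change 0.996). Of these 4 rose, namely Marco, Cd68, Mpeg1 and Chil3, against 0.315% of all tested probe sets. The summed signal of the 11 ran from 101154 to 110540 in deleted pools and from 42019 to 61496 in control pools. All 11 airway markers were past the filter too (median log2 fold change -0.41). Of these 2 fell, Ccdc153 and Sox2, against 0.0074% of all tested probe sets. The summed signal of the 11 airway markers ran from 462611 to 592698 in deleted pools and from 582521 to 737714 in control pools. Type I, lymphocyte, endothelial and mesenchymal marker lists had medians between -0.23 and 0.30, and no gene of them passed. The part of these cells in the results for the 10 genes was not tested. In such isolates a change in the mix of cells and a change of RNA per cell cannot be told apart.

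**Figure D1:**
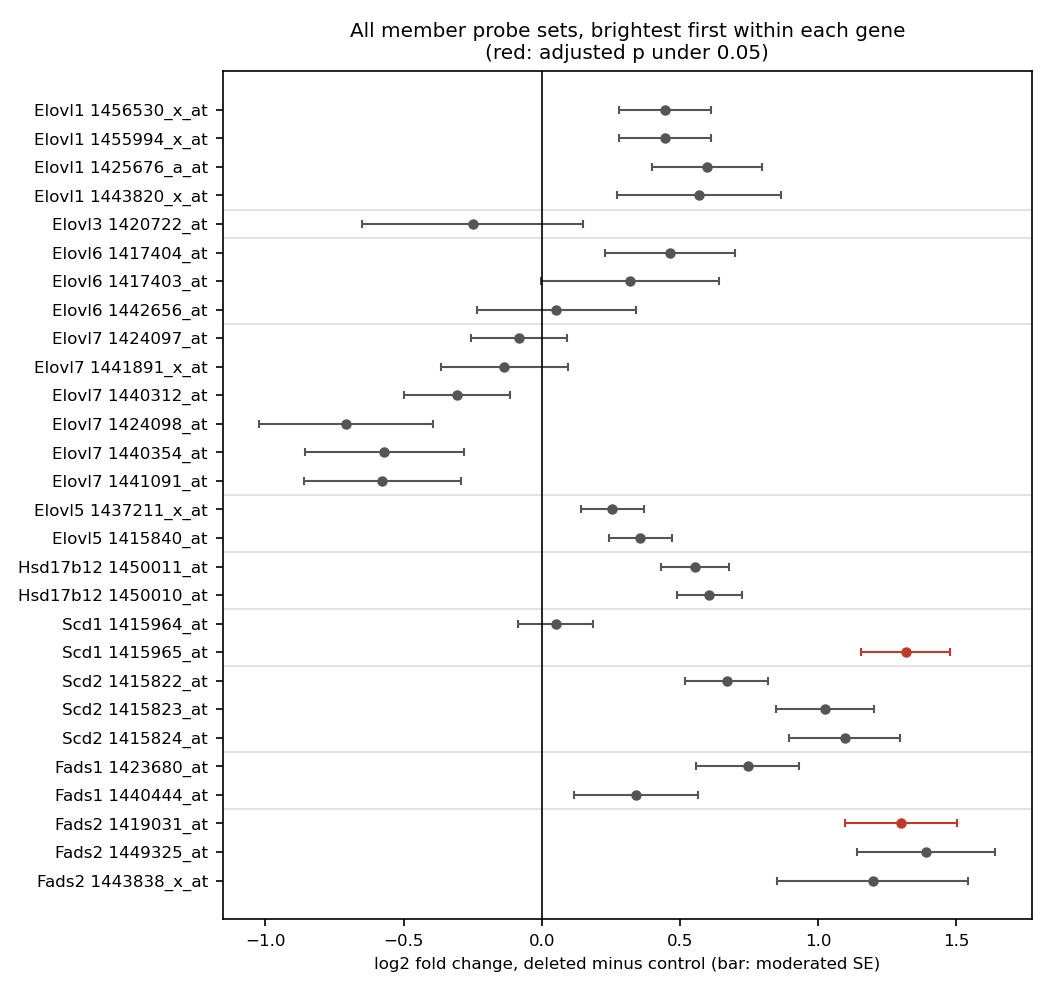
Log2 fold change (x axis, deleted minus control, bars are moderated SE) of each of the 28 member probe sets, listed by gene with the brightest probe set of a gene on top. The 10 desaturase probe sets all lie above 0 and the 6 Elovl7 probe sets all lie below 0, and 2 probe sets, in red, passed the threshold.

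Scd1 encodes the stearoyl-CoA desaturase that makes monounsaturated fatty acids. Its dimmer probe set (1415965_at) had signals of 54018, 68249 and 59716 in deleted pools, against 30522, 22958 and 20335 in control pools. The lowest deleted pool lay 1.77-fold above the highest control pool. The mean was 60661 ± 7162 in deleted pools and 24605 ± 5289 in control pools (SD, n = 3 each). The log2 fold change was 1.32 ± 0.16 (SE; limma, adjusted p = 0.0115). It passed with 4 of the 6 single pools left out, and missed the threshold without deleted replicate 2 (limma, adjusted p = 0.0969) or deleted replicate 3 (0.0701). Macrophage markers moved in the same direction (median log2 fold change 0.996), and their part was not tested.

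The brighter Scd1 probe set (1415964_at) gave another picture. It had signals of 113406, 141121 and 144841 in deleted pools, against 113318, 138789 and 132743 in control pools, so the groups overlapped. Its log2 fold change was 0.05 ± 0.14 (SE; limma, adjusted p = 0.935). These signals were on average 82.7% of the array's highest signal in deleted pools and 74.3% in control pools, against 37.8% and 14.8% for the dimmer probe set. Its lowest value in each group lay on the array with the lowest maximum of that group, deleted replicate 1 (141333) and control replicate 1 (142847).

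Scd2, a second stearoyl-CoA desaturase gene, had 3 probe sets, and deleted pools lay above control pools on each. The brightest (1415822_at) had signals of 84537, 104636 and 95058 in deleted pools, against 69641, 61407 and 48787 in control pools, a log2 fold change of 0.67 ± 0.15 (SE; limma, adjusted p = 0.164). The middle one (1415823_at) had signals of 16533, 20702 and 16404 in deleted pools, against 10903, 8936 and 6840 in control pools, with a log2 fold change of 1.02 ± 0.18 (SE; limma, adjusted p = 0.057). The dimmest (1415824_at) gave 1.10 ± 0.20 (SE; limma, adjusted p = 0.0722), with signals of 2398, 2855 and 2192 in deleted pools and 1425, 1223 and 880 in control pools. None of the 3 passed the threshold with all pools, though the middle probe set passed without control replicate 1 (0.0476), 2 (0.0459) or 3 (0.0357) and the dimmest without control replicate 2 (0.0497). On each probe set control replicate 3 was the lowest pool. Scd1 and Scd2 are paralogs, and whether a probe set of one also binds the other was not tested.

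**Figure D2:**
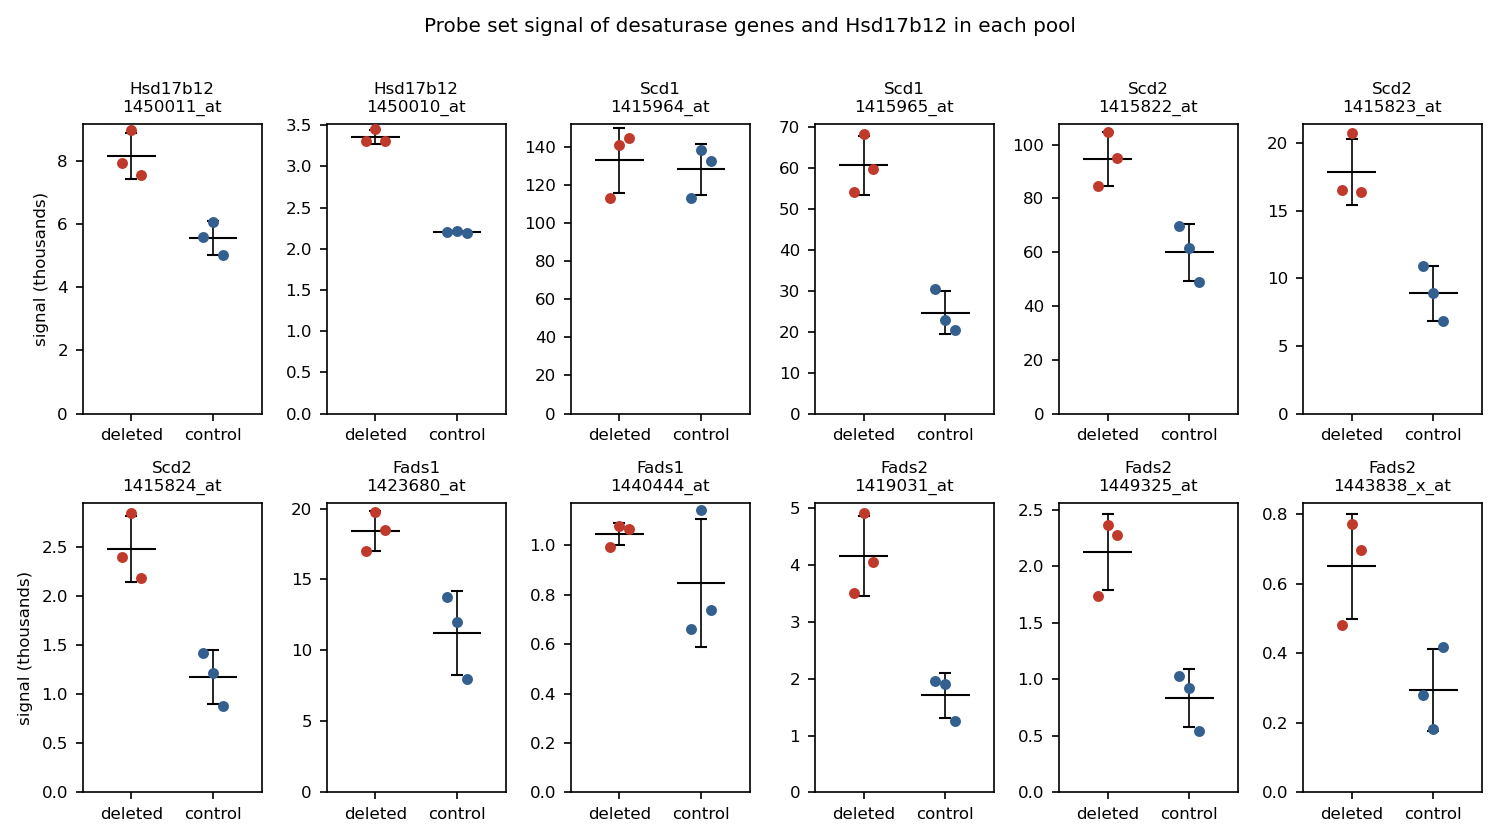
Signal divided by 1000 (y axis, each panel with its own scale from 0) of every probe set of Hsd17b12, Scd1, Scd2, Fads1 and Fads2, with 1 point a pool, the mean as a line and SD as bars. Deleted pools lie above control pools in 10 of the 12 panels, the exceptions being the brighter Scd1 and the dimmer Fads1 probe set.

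Fads2 encodes the desaturase that starts the conversion of linoleic acid to longer polyunsaturated acids. Its brightest probe set (1419031_at) had signals of 3504, 4904 and 4048 in deleted pools, against 1955, 1907 and 1252 in control pools. Each deleted pool lay at least 1.79-fold above the highest control pool. The mean was 4152 ± 706 in deleted pools and 1705 ± 392.4 in control pools (SD, n = 3 each). The log2 fold change was 1.30 ± 0.20 (SE; limma, adjusted p = 0.0378). The call was lost without deleted replicate 1 (adjusted p = 0.1), 2 (0.216) or 3 (0.178) and without control replicate 1 (0.076), while the fold change stayed between 1.09 and 1.41 over the 6 fits that left out a pool. Without control replicate 3 the log2 fold change was 1.09 with an adjusted p of 0.0196 (limma).

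The other Fads2 probe sets gave fold changes of like size. The second (1449325_at) had signals of 1739, 2365 and 2272 in deleted pools, against 1033, 920 and 545 in control pools, with a log2 fold change of 1.39 ± 0.25 (SE; limma, adjusted p = 0.068). The dimmest (1443838_x_at) had signals of 481, 770 and 698 in deleted pools, against 281, 183 and 417 in control pools, and a log2 fold change of 1.20 ± 0.34 (SE; limma, adjusted p = 0.285). In both the groups did not overlap. The second passed without control replicate 2 (1.49, limma, adjusted p = 0.041) or control replicate 3 (1.11, adjusted p = 0.0312), and the dimmest did not pass without control replicate 3 (1.49, adjusted p = 0.101).

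Fads1 encodes the desaturase that makes arachidonic acid. Its brighter probe set (1423680_at) had signals of 16987, 19763 and 18473 in deleted pools, against 13748, 12019 and 7978 in control pools, so the groups did not overlap. The log2 fold change was 0.74 ± 0.19 (SE; limma, adjusted p = 0.228), and 0.52 without control replicate 3. The dimmer probe set (1440444_at) overlapped between groups, with signals of 992, 1075 and 1065 in deleted pools and 660, 1143 and 739 in control pools (log2 fold change 0.34 ± 0.22). All 10 desaturase probe sets had fold changes above 0, with a median of 1.06 and a range of 0.05 to 1.39. Deleted pools lay above all control pools on 8 of the 10, against 7.69% of all tested probe sets.

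Promoter windows of 300 bases around the gene start, taken from RefSeq (GRCm38.p6), were matched for 6 of the 10 members, Elovl1 with 2 windows. Scd1, Scd2, Fads1 and Elovl3 were not matched. The Fads2 window is shown because a probe set of Fads2 rose, and those of Hsd17b12 and Elovl5 because deleted pools lay above control pools on every probe set of these genes. The windows lie at chr19:10101454-10101753 (Fads2) and chr2:94157860-94158159 (Hsd17b12) on the minus strand and at chr9:77917115-77917414 (Elovl5) on the plus strand, and are written 5′ to 3′ along the gene. Capitals mark matches on either strand to CCAAT, a motif bound by NF-Y, to GGGCGG, a motif bound by Sp1, and to the E-box CACGTG.
Fads2: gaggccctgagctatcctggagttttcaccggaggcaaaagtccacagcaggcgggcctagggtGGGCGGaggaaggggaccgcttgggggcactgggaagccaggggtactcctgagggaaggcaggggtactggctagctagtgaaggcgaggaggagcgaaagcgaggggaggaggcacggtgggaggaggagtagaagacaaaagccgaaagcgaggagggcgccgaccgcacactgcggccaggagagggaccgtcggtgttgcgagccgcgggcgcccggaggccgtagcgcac
Hsd17b12: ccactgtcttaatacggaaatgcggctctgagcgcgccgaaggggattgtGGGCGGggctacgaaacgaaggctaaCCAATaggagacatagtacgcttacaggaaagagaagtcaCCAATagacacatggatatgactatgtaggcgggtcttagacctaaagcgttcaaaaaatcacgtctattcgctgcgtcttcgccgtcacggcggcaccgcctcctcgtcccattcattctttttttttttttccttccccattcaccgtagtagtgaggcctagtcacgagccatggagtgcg
Elovl5: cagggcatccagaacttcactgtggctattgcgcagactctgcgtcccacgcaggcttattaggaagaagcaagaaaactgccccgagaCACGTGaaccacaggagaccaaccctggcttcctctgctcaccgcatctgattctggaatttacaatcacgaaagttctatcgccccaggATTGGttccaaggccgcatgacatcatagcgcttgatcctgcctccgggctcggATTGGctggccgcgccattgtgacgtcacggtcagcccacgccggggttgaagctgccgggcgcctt
The Fads2 window held 1 match to GGGCGG, beginning at -186 from the gene start, and the Hsd17b12 window held 1 at -200 and matches to CCAAT at -174 and -134. The Elovl5 window held 2 matches to CCAAT on the other strand, at -71 and -17, and the E-box at -161. None of these matches overlap. Over all 7 member windows, 3 held CCAAT and 5 held GGGCGG, where 37.4% and 35.7% of the 32851 windows of all genes did. The core of the sterol regulatory element, TCACNCCAC on either strand, was in 0 of the 7 member windows and in 1.24% of all windows, and the E-box CACGTG was in 1 (Elovl5) and in 7.15% of all. A match is a string of letters and no evidence of binding.

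Hsd17b12 encodes the ketoacyl-CoA reductase that all elongases share. Its brighter probe set (1450011_at) had signals of 7930, 8972 and 7573 in deleted pools, against 5593, 6068 and 5019 in control pools, a log2 fold change of 0.55 ± 0.12 (SE; limma, adjusted p = 0.164). The dimmer one (1450010_at) had signals of 3309, 3449 and 3313 in deleted pools, against 2199, 2218 and 2192 in control pools, a log2 fold change of 0.61 ± 0.12 (SE; limma, adjusted p = 0.0902). On the second the controls lay close together and every deleted pool was at least 1.49-fold above them. Neither passed the threshold. Without control replicate 3 the values were 0.48 and 0.60, and the dimmer set's range over the 6 fits that left out a pool was 0.59 to 0.62.

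Among the elongases, Elovl1, which lengthens saturated and monounsaturated chains for sphingolipids, had 4 probe sets with log2 fold changes between 0.44 and 0.60, none past the threshold. Its brightest (1456530_x_at) had signals of 72360, 82985 and 72750 in deleted pools, against 57811, 69385 and 43064 in control pools (log2 fold change 0.45 ± 0.17; limma, adjusted p = 0.422). Deleted pools lay above control pools, by 1.04-fold at the nearest pools, and on the dimmest probe set the groups overlapped. The first 2 Elovl1 probe sets differed from each other by between 0.06 and 0.11 on the log2 scale in every pool, and whether they share probes was not tested. Without control replicate 3 the 4 Elovl1 values, from the brightest to the dimmest probe set, were 0.26, 0.27, 0.34 and 0.19.

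Elovl5 acts on polyunsaturated chains between the FADS enzymes. Its brighter probe set (1437211_x_at) had signals of 26241, 30284 and 27253 in deleted pools, against 22247, 25800 and 22201 in control pools, a log2 fold change of 0.26 ± 0.11 (SE; limma, adjusted p = 0.493). The dimmer (1415840_at) had signals of 25153, 25220 and 24140 in deleted pools, against 20558, 20905 and 16943 in control pools, and 0.36 ± 0.12 (SE; limma, adjusted p = 0.341). The groups did not overlap on either.

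Elovl6, which lengthens palmitate to stearate, was dim in these isolates. Its brightest probe set (1417404_at) had signals of 1250, 773 and 751 in deleted pools, against 585, 683 and 691 in control pools, with a log2 fold change of 0.47 ± 0.24 (SE; limma, adjusted p = 0.545). Deleted pools lay above control pools, deleted replicate 1 far above the other deleted pools, and without it the value was 0.23. The other 2 probe sets overlapped between groups and gave 0.32 and 0.05.

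Elovl7, an elongase of saturated chains, was the member with the most probe sets and had none above 0. All 6 of its probe sets had fold changes below 0, from -0.71 to -0.08, and none passed the threshold. The brightest (1424097_at) had signals of 2349, 1758 and 1679 in deleted pools, against 2209, 1762 and 2112 in control pools, and the groups overlapped (log2 fold change -0.08 ± 0.17; limma, adjusted p = 0.917). The lowest fold change came from the fourth in brightness (1424098_at), which had signals of 762, 364 and 462 in deleted pools, against 599, 930 and 1004 in control pools (-0.71 ± 0.31; limma, adjusted p = 0.489). The dimmest (1441091_at) had signals of 244, 275 and 320 in deleted pools, against 524, 363 and 374 in control pools, and was the only one without overlap (-0.58 ± 0.28; limma, adjusted p = 0.53). Without deleted replicate 3 the 2 brightest probe sets turned to 0.01 and 0.11. Airway cell markers also lay lower (median log2 fold change -0.41), and their part was not tested.

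Elovl3, an elongase best known from brown fat and skin, had 1 probe set (1420722_at), just inside the filter (mean log2 signal 8.12, filter at 8.08). It had signals of 202, 312 and 266 in deleted pools, against 382, 174 and 424 in control pools, so the groups overlapped (log2 fold change -0.25 ± 0.40; limma, adjusted p = 0.886). Taken as a group, the 5 elongase genes had 16 probe sets with a median log2 fold change of 0.15. Of these, 6 had deleted pools above all control pools (7.69% of all tested probe sets did), 1 had them below (7.88% of all) and 9 overlapped.

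Probe sets of 1 gene were set against each other, since some, such as the brightest of Scd1 and of Scd2, lie near the top of the range. For each gene with at least 2 probe sets past the filter, the log2 signal of a dimmer probe set minus that of the brightest was taken in each pool and compared between genotypes with limma. The difference between the Scd1 probe sets was -1.07, -1.05 and -1.28 in deleted pools, against -1.89, -2.60 and -2.71 in control pools, so the groups did not overlap. The fold changes thus differed by 1.27 ± 0.18 on the log2 scale (SE; limma, unadjusted p = 2.18e-05, adjusted p = 0.211). This was the smallest p of the 9691 pairs in 5747 genes, none of which passed after adjustment (0%), while 505 (5.21%) had an unadjusted p under 0.05. It passed without control replicate 1 (difference 1.52; limma, adjusted p = 0.000247), where 3 of 9663 pairs passed.

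The Scd2 probe sets followed the same order with smaller gaps. The middle probe set's fold change exceeded that of the brightest by 0.36 ± 0.10 (SE; limma, unadjusted p = 0.00559, adjusted p = 0.766) and the dimmest one's by 0.43 ± 0.17 (unadjusted p = 0.0272, adjusted p = 0.945), with groups that did not overlap in both. These 2 and the Scd1 pair were the only ones of the 18 member pairs with an unadjusted p under 0.05. For Elovl1, Elovl5, Hsd17b12 and Fads2 a dimmer probe set differed from the brightest by between -0.10 and 0.15. For Elovl7 the 5 dimmer probe sets lay below the brightest by between 0.05 and 0.63, and for Fads1 and Elovl6 the dimmer ones lay below by between 0.15 and 0.41.

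Brightness and fold change were also described over the whole array. Of the 145 tested probe sets with a mean log2 signal of 16 or more, 2 were members (the brightest of Scd1 and of Scd2). By limma 0 of the 145 passed the threshold. That count is near the share over all tested probe sets, of which 0.315% rose and 0.0074% fell. The median absolute log2 fold change of the 145 was 0.07, against 0.17 over all tested probe sets. Fold changes were smaller in brighter bins below that level too: over genes with several probe sets, the median absolute log2 fold change of the brightest one was 0.22 in the bin below 10, 0.13 between 12 and 13, 0.10 between 15 and 16, and 0.06 from 16 up. In the 38 genes whose brightest probe set lay there, the dimmer probe set had the larger absolute fold change in 70 of 87 pairs (80.5%), against 55.7% to 63.1% of pairs in the bins of lower brightness. Genes share arrays and pools, so these shares are descriptions. Why fold changes were smaller on brighter probe sets, in the members or elsewhere, was not tested.

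**Figure D3:**
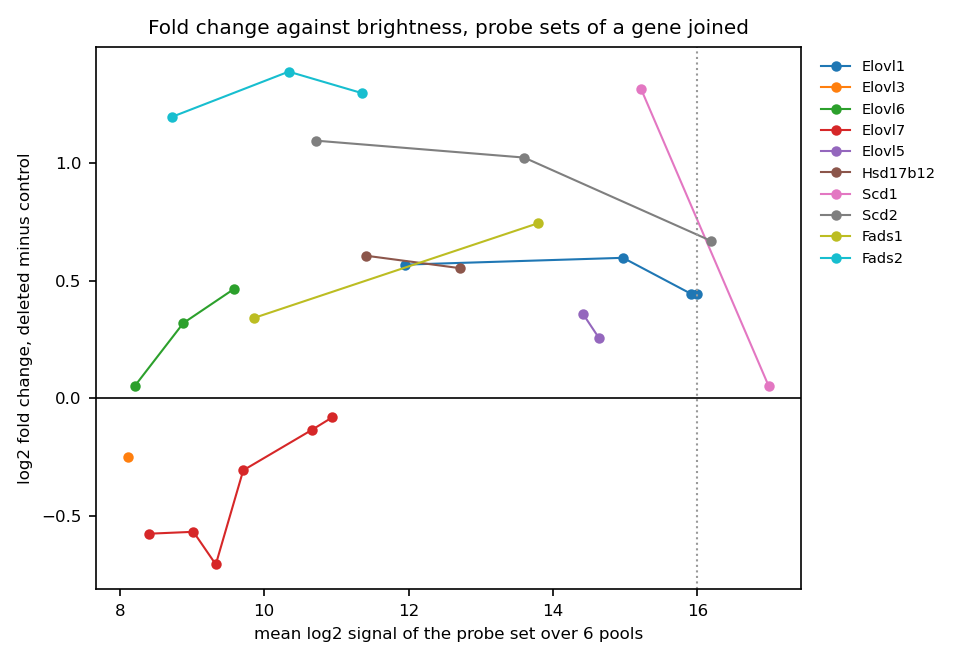
Log2 fold change (y axis, deleted minus control) against the mean log2 signal over 6 pools (x axis) for all 28 member probe sets, with those of a gene joined by a line and a dotted line at 16. The Scd1 line drops from 1.32 to 0.05 and the Scd2 line from 1.10 to 0.67 toward the bright end, while the Fads2 line stays between 1.20 and 1.39.

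By the distance between centred log2 signals over the 6 pools, the genes most like the dimmer Scd1 probe set were Nsdhl, a gene of cholesterol synthesis (root mean square distance 0.09), Fads2 (0.14) and Lpin1, a phosphatidic acid phosphatase gene (0.15). Those most like the brightest Fads2 probe set were Nsdhl (0.12), Msmo1, another gene of cholesterol synthesis (0.14), and the endothelial lipase gene Lipg (0.17). Their own log2 fold changes lay between 1.08 and 1.33. These genes were picked by nearness over the same 6 pools, so fold changes of like size follow from the choice.

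Of 18 elongation and desaturation partners 17 had a probe set and 14 were past the filter. None passed the threshold by limma. At an unadjusted p under 0.05 3 of them were higher, against 4.84% of all tested probe sets. At that level 2 were lower, and the share of all that were lower was not counted. The median log2 fold change was 0.10. Scd3, a further stearoyl-CoA desaturase gene, was dim, with signals of 675, 842 and 569 in deleted pools, against 303, 226 and 63 in control pools (log2 fold change 2.08 ± 0.53; limma, adjusted p = 0.237), and 1.39 without control replicate 3. Hacd1, of the dehydratase family that acts in the third step of the elongation cycle, averaged 5583 ± 352 in deleted pools and 8814 ± 1517 in control pools (SD, n = 3 each; log2 fold change -0.65 ± 0.14; limma, adjusted p = 0.155), and passed without control replicate 2 (-0.77, adjusted p = 0.0282). Fads3, a relative of Fads1 and Fads2, stood at 0.47 and the cytochrome gene Cyb5b at 0.42. Another cytochrome gene, Cyb5a, went the other way at -0.35 (limma, unadjusted p = 0.0445, adjusted p = 0.48). Its deleted pools lay below all control pools. Hacd2 (0.00), Hacd3 (0.12) and the last enzyme of the cycle, Tecr (0.26), lay near or above 0. Dimmer tested probe sets gave 0.06 and 0.69 for Fads3, 0.46 and 0.39 for Cyb5b and -0.46 for Hacd1. They gave 0.06 for Hacd2, 0.20 and 0.17 for Hacd3 and 0.40 for Tecr.

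Of 11 genes that supply acyl chains all 11 were tested and had fold changes above 0 on their brightest probe set. Their median was 0.51, against -0.005 over the brightest probe sets of all genes. None passed the threshold by limma. At an unadjusted p under 0.05 8 were higher, against 4.84% of all tested probe sets, and 8 had deleted pools above all control pools, against 7.69%. Acss2, which makes acetyl-CoA from acetate, had signals of 11408, 12863 and 11416 in deleted pools, against 7233, 8364 and 6837 in control pools (log2 fold change 0.67 ± 0.12; limma, adjusted p = 0.0659), and passed without control replicate 2 (adjusted p = 0.0216). Fasn, the fatty acid synthase gene, averaged 65175 ± 5810 in deleted pools and 42944 ± 8103 in control pools (SD, n = 3 each; 0.62 ± 0.15; limma, adjusted p = 0.228). The lipogenic regulator Thrsp stood at 1.40, and passed without control replicate 1 (1.78, adjusted p = 0.0363), and the citrate lyase gene Acly at 0.51. Dimmer tested probe sets gave 0.77 for Thrsp and 0.77, 0.50 and -0.26 for Acly. They gave 0.95 and 0.58 for Acss2, 0.59 for Acaca, 0.31 for Me1 and 0.24 for Oxsm.

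Of 16 regulators 15 had a probe set and were tested, with a median log2 fold change of 0.14. None passed by limma. An unadjusted p under 0.05 was reached by 4 higher genes, against 4.84% of all tested probe sets, and by 1 lower gene, where the share of all was not counted. The lower one was Insig1, the deleted gene, with signals of 1253, 1442 and 1750 in deleted pools, against 2300, 3325 and 2960 in control pools (log2 fold change -0.95 ± 0.18; limma, adjusted p = 0.0956). Whether its probe set lies in the deleted part was not tested. Insig2, inactivated in both groups, stood at -0.17. Srebf1, the SREBP gene of fatty acid synthesis, had signals of 23908, 29209 and 25789 in deleted pools, against 21580, 15658 and 12752 in control pools (log2 fold change 0.69 ± 0.18; limma, adjusted p = 0.254). Srebf2 and Scap each stood at 0.44. Dimmer tested probe sets gave 0.22 for Srebf2 and -0.23 and -0.26 for Insig2.

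**Figure D4:**
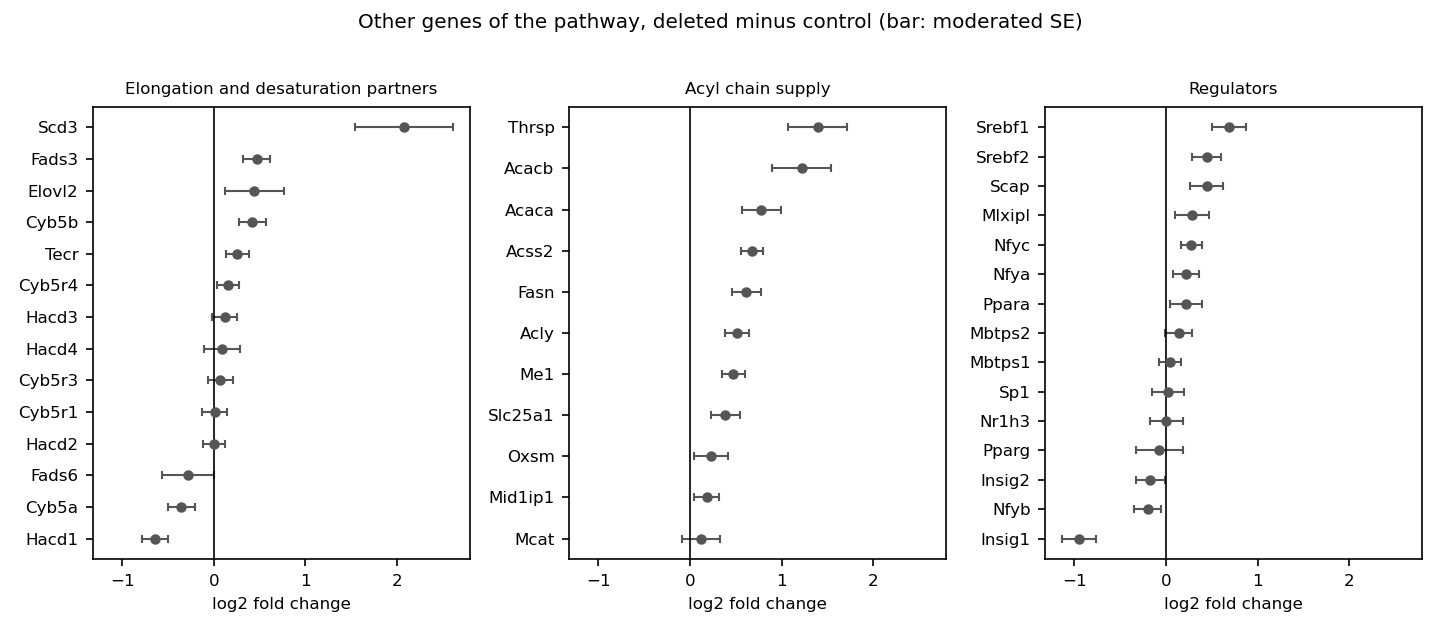
Log2 fold change (x axis, deleted minus control, bars are moderated SE) of the brightest probe set of each tested gene among the partners, the acyl chain supply genes and the regulators. All 11 supply genes lie above 0, Scd3 lies farthest right at 2.08, and Insig1 lies farthest left at -0.95.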

How the data were processed

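Each of 6 Affymetrix arrays held 1 pool of total RNA, 3 a genotype. Nothing says how many mice a pool held, so p-values measure the spread between pools. The authors deposited linear signal intensities per probe set, made with MAS5 (version not given in the sources used here) according to the submitters' processing notes. Their trimmed mean (2nd to 98th percentile) was 1500 on every array. MAS5 treats arrays one by one and gives dim probe sets noisy ratios, and the number of arrays limits the precision. Genome build and detection calls are not given in the sources used here.

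Any signal below 1 became 1 before log2 transformation. The 64 control probe sets were left out, and 34945 of the rest name 1 gene. Probe sets with a mean log2 signal below the 40th percentile (8.08, signal 271) were left out, which kept 27022 and all 28 member probe sets. The comparison used two-sided limma tests (version 3.58.1, R 4.3.3, lmFit and trended eBayes), adjusted by Benjamini-Hochberg over every probe set tested, at a threshold of 0.05. For pairs of probe sets the trend followed the dimmer one's signal, and pairs were adjusted among themselves. An exact permutation test of 3 against 3 cannot go below p = 0.1 and was not used. Other genes are given by their brightest probe set. The steps were tested on simulated data. Named were all members, of the partner, supply and regulator lists the genes past the threshold and up to 4 others with the smallest p, besides Insig1, Insig2, Fasn and Srebf1, and the 3 genes nearest to each member past the threshold. Hacd2, Hacd3, Tecr, Cyb5a, Acaca, Me1, Oxsm and the cell markers were named outside that rule, after their values were seen. The members and lists were chosen with earlier results of these data known. Alternatives were other normalizations, a pseudocount of 16, no trend, array weights, no filter or a filter at the 60th percentile, 1 value a gene, the pool number as a block, a threshold of 0.1, and each pool left out. Figures were drawn with matplotlib 3.10.9.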

Additional observations from a re-analysis of the deposited data

How the results depend on the processing

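The number of member probe sets past the threshold, 2 with all settings as reported, was 1 with quantile normalization (74 of all probe sets rose) or no filter (67), 3 with the filter at the 60th percentile (99), 4 with arrays shifted to a common median (130), 6 with array weights or a threshold of 0.1 (158 each), 0 without an intensity trend (4), and 0 to 5 with a pool left out, against 85 of all as reported. With 1 value a gene, the brightest probe set or the mean, only Fads2 passed and Scd1 did not (81 and 80 of 12952 genes rose). The Scd1 and Fads2 probe sets missed the threshold without a trend (adjusted p = 0.109 and 0.172), and Fads2 also with quantile normalization (0.0507) and no filter (0.0521). The causes were not tested. Differences between probe sets of a member past the threshold numbered 1 (Scd1, 1 of 9686 pairs of all genes) with quantile normalization, against 0 of 9691. With a pool left out they numbered 0 to 1, the 1 coming without control replicate 1, where 3 of 9663 pairs passed. Other pathway genes past the threshold numbered 1 with a common median, array weights or the brightest probe set a gene (130, 158 and 81 of all rose), against 0. With a pool left out they numbered 0 to 2. The 2 came without control replicate 1 (57 of all rose) and without control replicate 2 (198 rose and 262 fell). Deviations of same-numbered pools correlated at 0.107, 0.054 and 0.133, and pools of different numbers were not compared. Whether the pool numbers pair the pools was not tested. With the replicate block 5 member probe sets, all higher, and 2 other genes, 1 higher and 1 lower, passed, where 130 of all probe sets rose and 15 fell. In that setting 1 probe set difference passed, of 9691 pairs the only 1. Directions turned only for Elovl6 1442656_at (-0.02 with array weights, -0.06 to 0.17 with a pool left out), Elovl7 1424097_at (-0.23 to 0.01) and 1441891_x_at (-0.37 to 0.11), and the brighter Scd1 probe set (-0.04 to 0.16).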
